A study of Mus musculus with 2 samples.

Results

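A set of 10 genes of mRNA decay and cell quiescence was followed in single-cell RNA sequencing of sorted haematopoietic stem and progenitor cells (HSPCs). They were taken by symbol from a list: the AU-rich element decay factors Zfp36, Zfp36l1 and Zfp36l2, the anti-proliferative genes Btg1, Btg2, Tob1 and Tob2, and the Krüppel-like factors Klf2, Klf4 and Klf6. All 10 were among the 27998 genes of both libraries. The cells were bone marrow LSK cells (Lin- Sca-1+ c-Kit+) from 3-month-old mice, with 1 library labelled Trmt6 WT (Trmt6fl/fl) and 1 labelled Trmt6 cKO (Trmt6fl/fl, MX1-cre). Both groups carry the floxed Trmt6 allele by their labels, and the Cre recombinase is driven by the interferon-inducible Mx1 promoter. The study itself, by contrast, describes controls that carry Mx1-Cre without the floxed allele, and mice treated with pIpC, a double-stranded RNA that induces interferon and so the recombinase. How many mice went into each library is not given in the sources used here. With 1 library per genotype, no difference below has a replicate check and no test was possible. Genotype, library and, by the labels, Cre cannot be told apart. Every interval is a 95% interval for counting error only.

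The ZFP36 proteins bind AU-rich elements in the 3′ untranslated region (UTR) of short-lived mRNAs and recruit the CCR4-NOT deadenylase, which shortens the poly(A) tail. BTG and TOB proteins bind the catalytic subunits of the same complex and slow cell proliferation when overexpressed. KLF2, KLF4 and KLF6 are zinc finger transcription factors, of which KLF2 is best known for keeping naive T cells quiescent and KLF4 for its role in monocyte differentiation. Several of these genes, Zfp36, Btg2, Klf2, Klf4 and Klf6 among them, are also induced within minutes of stress or growth factor signals, in the way of immediate early genes.

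Each ZFP36 family mRNA holds a sequence of the kind that its own protein is known to bind, shown here because the family is known to control its own mRNAs. The nonamer TTATTTATT, which contains the heptamer TATTTAT, occurred 1 time in the longest annotated 3′ UTR (GENCODE M21, GRCm38, sense strand) of each of the 3 ZFP36 genes and in none of the other 7 members. It starts at base 589 of the UTR in Zfp36, 1404 in Zfp36l1 and 821 in Zfp36l2, and is in capitals here.
Zfp36: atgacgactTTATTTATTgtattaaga
Zfp36l1: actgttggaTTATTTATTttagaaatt
Zfp36l2: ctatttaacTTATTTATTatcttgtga
Among all UTRs of like length (not under 0.8 times the member's length, and longer by no more in proportion), the nonamer was present in 4.20% for the 774-base UTR of Zfp36, in 10.1% for the 1835-base UTR of Zfp36l1 and in 9.94% for the 1822-base UTR of Zfp36l2. The heptamer was found in 7 of the 10 members, 3 times in each ZFP36 gene, 2 times in Klf6 and 1 time in Btg2, Tob2 and Klf2. It was absent from the UTRs of Btg1, Tob1 and Klf4, whose lengths were 4166, 767 and 982 bases. Of all 20998 UTRs, with a median length of 953.5 bases, 27.5% held the heptamer and 7.60% the nonamer. Among UTRs of like length the heptamer was present in 18.7% (Klf2) to 60.8% (Btg1), with 19.8% for Zfp36, 38.9% for Zfp36l1, 38.5% for Zfp36l2, 43.5% for Btg2, 47.5% for Tob2 and 54.8% for Klf6, so a match in the longer UTRs was common. These matches are descriptions of the letters and not binding sites measured here.

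Promoter letters were read from RefSeq (GRCm38.p6, 250 bases before to 50 bases after the start) for 9 of the 10 members. Zfp36l2 had no entry. The sites of the 3 factors best known for immediate early induction are shown because they separate the members. A CArG box, the serum response factor site, was present on either strand in Zfp36 alone and in 1.57% of 27025 promoters. The AP-1 site TGANTCA was present in Zfp36l1 alone (7.93% of promoters), and the cAMP response element TGACGTCA in Btg2 alone (1.88%). They begin 58, 129 and 166 bases before the RefSeq start site and are in capitals here. The RefSeq start of Zfp36 lies 1025 bases inside the GENCODE span of the gene given further on, while those of Zfp36l1 and Btg2 lie at or just upstream of the GENCODE 5′ end.
Zfp36 (chr7:28379268-28379295, minus strand): caggccgccCCATAAAAGGagaaagctc
Zfp36l1 (chr12:80113125-80113152, minus strand): accgcatggcTGATTCAacctcagtgtc
Btg2 (chr1:134079304-134079331, minus strand): ttcccaataaTGACGTCAgtgagcgatg
The core TGACG, which the full element contains on both strands, was in 5 member promoters on either strand (Btg1, Btg2, Tob1, Klf2 and Klf4) and in 21.02% of all promoters. The GC box GGGCGG was in 8 (all but Zfp36l1) and in 35.9% of all. The EGR site GCGTGGGCG (0.625% of promoters) and the NF-kB site (9.29%) were in none of the 9. The genes lie on 10 different chromosomes: Zfp36 at chr7:28376784-28380253, Zfp36l1 at chr12:80107754-80113013, Zfp36l2 at chr17:84183931-84187947, Btg1 at chr10:96617006-96622809, Btg2 at chr1:134075170-134079120, Tob1 at chr11:94211454-94215495, Tob2 at chr15:81848272-81858796, Klf2 at chr8:72319033-72321656, Klf4 at chr4:55527143-55532466 and Klf6 at chr13:5861482-5870394. Other annotated genes overlap Zfp36, Zfp36l1, Zfp36l2 and Tob2 in position. The only one of these with a row in the matrices, Gm26669 at Zfp36l1, held 16 WT and 25 cKO UMIs.

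The WT library gave 8146 cells of 8869 barcodes and 42910297 UMIs (unique molecular identifiers, the counted molecules), and the cKO library 8474 cells of 9260 barcodes and 88279573 UMIs, once filters and doublet removal were applied. The cKO library was deeper, with a median of 10155 UMIs per cell against 4265.5. The median mitochondrial share was 1.86% in cKO and 2.50% in WT, and ribosomal protein genes held 36.2% and 31.4% of UMIs. The libraries shared 24 cell barcodes. Trmt6, the targeted gene, was at 64.2 CPM (counts per 1000000 UMIs) in WT against 50.4 CPM in cKO, a log2 ratio of cKO over WT of -0.35 (-0.42 to -0.28), and of -1.10 (-1.65 to -0.53) in cells gated as haematopoietic stem cells (HSCs). Which exons were deleted is not given in the sources used here, so counts of the 3′ end check the labels only in part. Its partner Trmt61a was at 16.5 CPM in WT against 33.2 CPM in cKO. The summed markers of lymphoid-primed progenitors (LMPPs), granulocyte-monocyte progenitors (GMPs) and neutrophils were at 445, 6660.5 and 6073 CPM in WT and at 159, 782 and 8.04 CPM in cKO, with 2 of the 10 neutrophil markers at 0 UMIs in cKO. The part of these shifts in depth and cell makeup in the values below was not tested, except where a value within cells of like depth or class is given.

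Over all kept cells, 9 of the 10 members were lower in the cKO library and 6 of them by more than 2-fold: Zfp36, Btg1, Btg2, Klf2, Klf4 and Klf6. Of the 9129 genes that reached 5 CPM in either library, 5.23% were lower by more than 2-fold and 2.94% were higher by as much. No member was higher by more than 2-fold. The median log2 ratio was -1.60 for the members and -0.06 for all genes. Levels are compared throughout for 1 gene or 1 summed list at a time and not between genes, since counts were not set against transcript length. A summed level follows its most abundant genes.

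Within the ZFP36 family the founding member stood apart. Zfp36, which encodes tristetraprolin, was at 174 CPM (170.3 to 178) in WT and 40.4 CPM (39.1 to 41.8) in cKO, lower by 4.31-fold (log2 ratio -2.11, -2.17 to -2.05). Only 1.46% of all genes had a ratio as low. Zfp36l1, a paralog with a part in lymphoid development, was at 23.9 CPM in WT against 15.1 in cKO (log2 -0.66, -0.78 to -0.54). Zfp36l2, the paralog needed for definitive haematopoiesis in mice, was at 458 CPM in WT against 336 in cKO (log2 -0.45, -0.47 to -0.42). A ratio as low as that of Zfp36l1 was held by 11.3% of all genes, and as low as that of Zfp36l2 by 20.2%. The intervals of the 3 ratios did not overlap.

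Among the BTG and TOB genes, Btg1 and Btg2 had the lower ratios over all kept cells. Btg2, also a p53 target, was at 119 CPM in WT against 23.4 in cKO (log2 -2.35, -2.42 to -2.28), the lowest of the 10 members over all kept cells. Btg1 was at 106 CPM in WT against 36.0 in cKO (log2 -1.55, -1.62 to -1.49). Reads of Btg1 could be shared with its processed pseudogenes. Btg1-ps1 and Btg1-ps2 held 0 UMIs in both libraries, which does not show whether shared reads were left out of the Btg1 counts. The part of shared reads was not tested. Tob2 was at 31.1 CPM in WT against 17.2 in cKO (log2 -0.86, -0.96 to -0.75), short of 2-fold. Tob1 was the only member that was not lower, at 12.8 CPM (11.8 to 13.9) in WT and 14.6 CPM (13.8 to 15.4) in cKO, a log2 ratio of 0.18 (0.04 to 0.33).

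All 3 KLF genes were lower by more than 2-fold. Klf2 was at 73.9 CPM in WT against 14.7 in cKO, lower by 5.02-fold (log2 ratio -2.33, -2.42 to -2.23). Klf6 was at 95.1 CPM in WT against 30.4 in cKO (log2 -1.65, -1.72 to -1.57). Klf4, at 11.6 CPM in WT against 2.88 in cKO, rested on 499 and 254 UMIs and had a log2 ratio of -2.01 (-2.24 to -1.79). Each of the 3 was in the lowest 2.22% of all genes by ratio, and Klf2 in the lowest 1.12%.

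**Figure D1:**
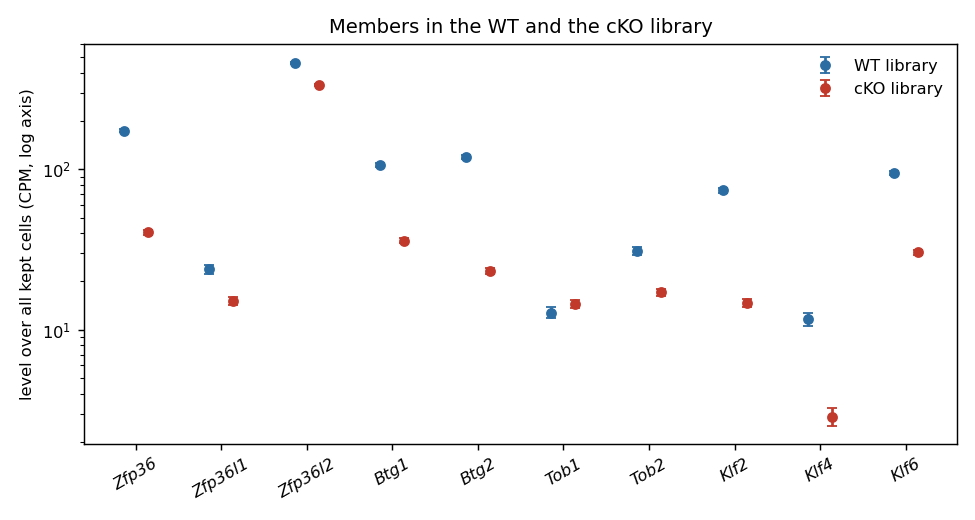
Level of each member over all kept cells in CPM (log axis), with the WT library in blue, the cKO library in red and bars for 95% counting intervals. The red point is below the blue point for every gene but Tob1, with the widest gaps for Btg2, Klf2 and Zfp36.

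Because cells of the cKO library carried more UMIs, the ratios were recomputed in cells of like depth, where those of the 6 members lower by more than 2-fold were all smaller in size or reversed. In cells of 4000 to 8000 UMIs (3169 WT, 2131 cKO), 4 members were lower by more than 2-fold, beside 5.98% of all genes, and none was higher, beside 4.76%. In cells of 8000 UMIs or more (1266 WT, 6028 cKO) 4 were again lower by more than 2-fold, beside 5.6% of all genes, and Tob1 was higher by as much, beside 6.12%. In cells of 2000 to 4000 UMIs, of which the cKO library held only 211 against 3516 in WT, Tob2 was the only member lower by more than 2-fold (6.23% of all genes) and Zfp36l1 the only one higher (9.08%). The ranges of 2000 to 4000 and of 8000 UMIs or more were chosen after seeing the data, and that of 4000 to 8000 UMIs over all kept cells with the other alternatives. Its use within the marker-gated classes and the gene lists below was also added after seeing the data.

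The levels of most members depended on depth within a library too. Zfp36 was at 306, 168 and 82.3 CPM in WT and at 183, 71.6 and 32.6 CPM in cKO, going from the shallowest to the deepest range. Its log2 ratios in the 3 ranges were -0.73 (-1.01 to -0.48), -1.23 (-1.34 to -1.13) and -1.34 (-1.44 to -1.23), all below 0 and all smaller in size than the value over all cells. Btg2 was likewise lower in each range, at -0.70 (-1.04 to -0.40), -1.63 (-1.77 to -1.49) and -1.54 (-1.67 to -1.41). Klf2 went from 125, 69.2 and 40.9 CPM in WT to 104, 31.2 and 9.86 CPM in cKO, with ratios of -0.25 (-0.62 to 0.09), -1.15 (-1.31 to -0.99) and -2.05 (-2.21 to -1.89). For these 3 genes the difference was larger above 4000 UMIs, where the cKO library had most of its cells, than below.

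Other members changed direction with depth. Btg1 was higher in cKO in the shallowest cells, 179.7 CPM in WT against 280.4 CPM in cKO with a log2 ratio of 0.65 (0.42 to 0.86), and lower in the others at -1.04 and -0.99. Zfp36l1 had ratios of 1.11 (0.69 to 1.49), -0.34 (-0.57 to -0.12) and 0.55 (0.29 to 0.84). For Zfp36l2 the ratios were -0.10, 0.05 and 0.09, so its lower level over all cells was not seen in cells of like depth. Klf6 was short of 2-fold in each range, at -0.59, -0.86 and -0.92, and Klf4 passed it only in the deepest, at -0.46, -0.69 and -1.60. Tob1 was higher in cKO, at 0.29 (-0.52 to 0.95), 0.86 (0.61 to 1.12) and 1.04 (0.73 to 1.37). Tob2 stayed lower, at -1.15, -0.56 and -0.53. Class makeup was not held alike within these ranges. Cells gated as GMPs by markers, described below, were 627 in WT, with a median of 11642 UMIs, and 26 in cKO. In WT they had low levels of Zfp36l1 (5.48 CPM) and Tob1 (4.93 CPM). The part of class makeup in the ratios of any member by depth was not tested.

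**Figure D2:**
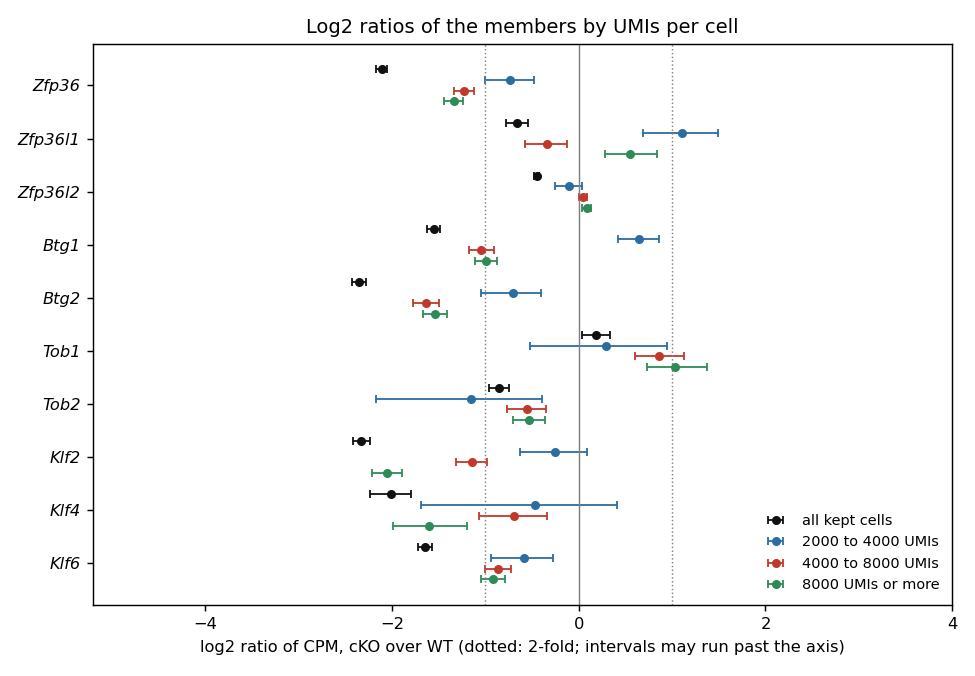
Log2 ratio of CPM, cKO over WT, for each member over all kept cells (black) and in cells of 2000 to 4000 UMIs (blue), 4000 to 8000 UMIs (red) and 8000 UMIs or more (green), with 95% counting intervals; dotted lines mark 2-fold. Zfp36, Btg2 and Klf2 lie left of 0 in every range, while Zfp36l2 lies at -0.10, 0.05 and 0.09 and Btg1 at 0.65 in the shallowest cells.

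Lineage was read from marker genes on cells thinned to 2000 UMIs, so that depth did not set the gate. A cell entered a class with 3 or more of its markers detected (4 for monocyte and dendritic cells, a sum of 20 UMIs for GMPs and of 100 for neutrophils), and cells in several gates were left out. The classes were small: 216 WT and 303 cKO cells were HSC-gated, 500 and 116 LMPP-gated, and 50 and 64 monocyte/DC-gated. The gates took 627 WT but 26 cKO cells as GMP, 124 and 12 as megakaryocyte, 58 and 0 as neutrophil and 9 and 61 as B cell. Most cells, 6256 WT and 7689 cKO, passed no gate. In HSC-gated cells the leading genes included Mllt3, Pdzk1ip1, Procr and Hlf in both libraries, in LMPP-gated cells Dntt, Satb1 and Flt3, and in monocyte/DC-gated cells Cd74 and the class II genes H2-Aa, H2-Ab1 and H2-Eb1. The depth gap was present inside these classes, with medians of 2874.5 and 6659 UMIs in HSC-gated, 3687.5 and 7901 in LMPP-gated and 3697 and 6327.5 in monocyte/DC-gated cells of WT and cKO.

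In HSC-gated cells the same 6 members as over all cells were lower by more than 2-fold, beside 11.3% of all genes, and the members' median log2 ratio was -1.55 against -0.13 for all genes. The HSC markers themselves were lower in the cKO cells of this class, with a median log2 ratio of -0.91 over the 7 markers at 50 CPM or more and a sum of 1542 CPM in WT against 983 in cKO, and the part of this in the members' values was not tested. Btg2 was at 130 CPM (90 UMIs) in WT and 22.5 CPM (49 UMIs) in cKO, a log2 ratio of -2.52 (-3.06 to -2.01). Klf2 was at 111 and 23.8 CPM, a ratio of -2.21 (-2.76 to -1.69), and Zfp36 at 268 and 69.2 CPM, a ratio of -1.95 (-2.27 to -1.64). Btg1 was at -1.57 (-1.98 to -1.16) and Klf6 at -1.53 (-1.91 to -1.15), and these 5 intervals lay wholly below -1. Klf4 was at -1.65 (-2.65 to -0.66). A gate 1 marker stricter ended the calls of Klf6 (-0.60) and Klf4 (-0.83), turned Tob1 from 0.27 to -0.94 and gave Zfp36l1 -1.84. In the main gate Zfp36l1 and Tob2 were at -0.80 (-1.50 to -0.06) each with the same UMI counts, 27 in WT and 49 in cKO. Zfp36l2 was at 680.3 and 477 CPM, a ratio of -0.51, and Tob1 at 15.9 and 19.7 CPM, a ratio of 0.27 (-0.67 to 1.42). Only 31 WT cells of this class had 4000 to 8000 UMIs, against 172 in cKO. There Btg2 was at -2.27 (-3.15 to -1.35), Klf2 at -1.19 (-2.18 to -0.01) and Zfp36 at -1.16 (-1.78 to -0.47), while the calls of Btg1 (-0.54) and Klf6 (-0.39) ended, Klf4 was at -1.44, Zfp36l1 passed 2-fold at -1.11, and the intervals of the other 7 ratios reached to both sides of 0, that of Tob1, with 0 WT UMIs, having no upper limit.

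In LMPP-gated cells 7 members were lower by more than 2-fold, the same 6 and Tob1, beside 10.4% of all genes. Zfp36 was at 285 CPM in WT against 78.8 in cKO (-1.84, -2.22 to -1.50), Btg2 at 202 and 49.0 CPM (-2.03) and Klf6 at 114 and 24.5 CPM (-2.19). Klf2 was at 167 and 46.8 CPM (-1.82, -2.32 to -1.38) and Btg1 at 168 and 76.6 CPM (-1.13, -1.52 to -0.77). Tob1 rested on 34 WT and 7 cKO UMIs (-1.03, -2.53 to 0.09) and Klf4 on 41 and 3. The call of Tob1 was lost under median-of-ratios scaling (-0.98), without mitochondrial and ribosomal protein genes (-0.97) and with gates on all UMIs (-0.98). With a gate 1 marker stricter Tob1 was at -0.13 and Klf4 at -0.67. With only 198 WT and 51 cKO cells of 4000 to 8000 UMIs, 3 members were lower by more than 2-fold, Zfp36 (-1.13), Klf2 (-1.03) and Klf6 (-2.68, on 75 and 3 UMIs), and Btg1 was at -0.09 (-0.69 to 0.44). The share of all genes past 2-fold was not counted in these few cells.

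Monocyte/DC-gated cells had the median log2 ratio nearest to 0 of the 4 classes compared, -0.79. In them 5 members were lower by more than 2-fold, beside 18.5% of all genes, namely Zfp36 (154 and 65.9 CPM, -1.22), Btg2 (186 and 86.3 CPM, -1.11), Klf2 (168 and 65.9 CPM, -1.34), Klf4 (74.5 and 13.6 CPM, -2.38) and Klf6 (158 and 77.2 CPM, -1.04). Btg1 was at 158 CPM in WT against 145 in cKO (log2 -0.13, -0.75 to 0.52), in contrast to the -1.83 (-1.91 to -1.76) of cells outside the gates, whose interval it did not overlap. Zfp36l1 was at 32.6 and 54.5 CPM on 7 and 24 UMIs, a ratio of 0.67 (-0.52 to 2.20), which did not overlap the -0.98 (-1.11 to -0.84) outside the gates. With the gate loosened by 1 marker Btg1 was at -1.36 (-1.84 to -0.89), its interval overlapping that outside the gates, and Zfp36l1 at -0.05 (-0.97 to 0.9997), overlapping it as well, so these contrasts depended on the gate. In cells of 4000 to 8000 UMIs (18 WT, 30 cKO) 4 of the 5 calls were lost, with Zfp36 at -0.45, Btg2 at -0.82, Klf2 at -0.04 and Klf6 at -0.40, and Klf4 stayed at -3.26 on 13 and 2 UMIs, while Tob2 passed 2-fold at -1.11 on 5 and 4 UMIs. With 50 and 64 cells, counts of 1 to 93 UMIs in WT lie behind these values.

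In the cells outside the gates 7 members, the 6 and Tob2, were lower by more than 2-fold, beside 5.66% of all genes, with a median log2 ratio of -1.85. Btg2 and Klf2 were at -2.61 each, Zfp36 at -2.36 and Klf4 at -2.23. Tob1 was at 14.4 CPM in WT against 14.5 in cKO, a ratio of 0.01 (-0.15 to 0.17). Kept to 4000 to 8000 UMIs (2688 WT, 1815 cKO), 4 members were lower by more than 2-fold: Btg2 (-1.73), Zfp36 (-1.30), Btg1 (-1.20) and Klf2 (-1.18). Here and in the classes above, the share of all genes past 2-fold was not counted at this depth.

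**Figure D3:**
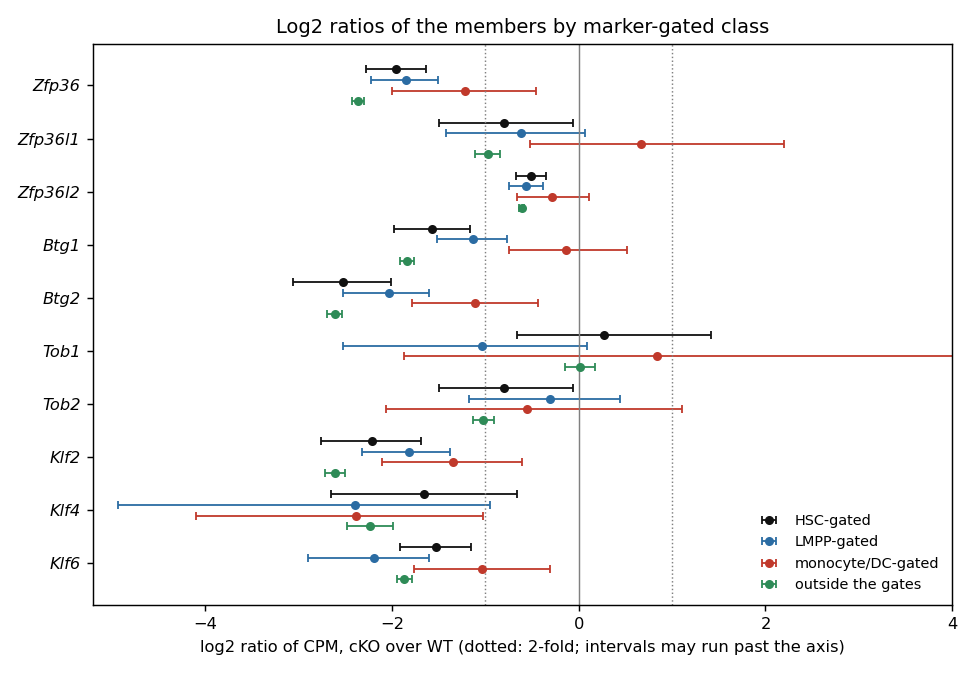
Log2 ratio of CPM, cKO over WT, for each member in HSC-gated (black), LMPP-gated (blue) and monocyte/DC-gated cells (red) and in cells outside the gates (green), with 95% counting intervals; dotted lines mark 2-fold. Zfp36, Btg2, Klf2, Klf4 and Klf6 lie left of -1 in all 4 classes, and Btg1 lies at -0.13 in monocyte/DC-gated cells.

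Within the WT library the 7 classes of 50 or more cells (cells outside the gates among them) were ordered much alike for several members, with HSC-gated and LMPP-gated cells high and GMP-gated cells low. HSC-gated cells were also the shallowest of these in WT, with a median of 2874.5 UMIs, and GMP-gated cells the deepest, with 11642. Among WT cells of 4000 to 8000 UMIs, with only 31 HSC-gated and 18 monocyte/DC-gated cells, the HSC-gated cells lost their high place for several members. There Zfp36l2 was at 446 CPM (348 to 564) in HSC-gated, 474 CPM in LMPP-gated and 487 CPM outside the gates, whose intervals overlapped. Klf6 was at 82.9 CPM in HSC-gated, 140 CPM in monocyte/DC-gated and 85.1 CPM outside the gates. Btg1 was at 76.5 CPM in HSC-gated cells and 96.6 CPM outside the gates, and Zfp36 at 179 and 168 CPM, again with overlapping intervals. The levels that follow are over all depths, so their order mixes class and depth, and the part of depth in the low levels of GMP-gated cells was not tested. In the smaller classes, left out of these orders, some WT levels went beyond the ends, such as Klf2 at 296 CPM on 17 UMIs in 9 B cell-gated cells. Zfp36 was highest in LMPP-gated (285 CPM) and HSC-gated cells (268 CPM), whose intervals overlapped, and lowest in GMP-gated (62.8 CPM) and neutrophil-gated cells (55.9 CPM), which overlapped as well. Zfp36l2 was at 680.3 CPM (620.3 to 744) in HSC-gated cells, above the other 6 classes at their own depths, and was at 244 CPM in GMP-gated and 76.0 CPM in neutrophil-gated cells. Zfp36l1 was at 53.8 CPM in megakaryocyte-gated, 38.9 CPM in HSC-gated and 5.48 CPM in GMP-gated cells, with 0 UMIs in the 58 neutrophil-gated cells (up to 6.70 CPM by a limit of 3 counts). The anti-proliferative Btg2 was at 202 CPM in LMPP-gated and 186 CPM in monocyte/DC-gated cells, which overlapped, and at 45.6 CPM in GMP-gated cells. Klf2 had a wider span, from 168 CPM in monocyte/DC-gated and 167 CPM in LMPP-gated cells to 12.3 CPM in megakaryocyte-gated cells, a 13.6-fold difference. Klf4 was highest in monocyte/DC-gated cells at 74.5 CPM (42.6 to 121), overlapping only HSC-gated cells at 27.4 CPM (16.5 to 42.8) by a narrow margin. Btg1 ran from 168 CPM in LMPP-gated to 54.3 CPM in GMP-gated cells, and Klf6 from 164 CPM in HSC-gated to 37.4 CPM in GMP-gated cells, with neutrophil-gated cells at 134 CPM. Tob2 ran from 38.9 CPM in HSC-gated to 11.2 CPM in neutrophil-gated cells, each class overlapping the next. Tob1 stood at 14.4 to 17.9 CPM in neutrophil-gated, LMPP-gated and HSC-gated cells and outside the gates, and at 3.08 to 4.93 CPM in the other 3 classes. It rested on 8 UMIs in neutrophil-gated (7.72 to 35.2 CPM), 2 in megakaryocyte-gated (0.37 to 11.1 CPM) and 1 in monocyte/DC-gated cells (0.12 to 26.0 CPM). The place of monocyte/DC-gated cells was thus not settled.

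In the cKO library, with 5 classes of 50 or more cells, the order was partly kept. Zfp36l2 was again highest in HSC-gated cells at 477 CPM (448 to 507). In cKO cells of 4000 to 8000 UMIs it was at 559.6 CPM (514 to 608) in HSC-gated cells against 490.2 (478 to 503) outside the gates and 432 (362 to 511) in LMPP-gated cells. Btg1 was highest in monocyte/DC-gated cells at 145 CPM (112 to 186), above LMPP-gated cells at 76.6 CPM (60.0 to 96.5). With the gates loosened by 1 marker these were 52.9 (41.4 to 66.6) and 48.2 CPM (40.6 to 56.8). In cells of 4000 to 8000 UMIs they were 136 (86.8 to 202) and 111 CPM (77.4 to 155). The intervals overlapped both times, so this order depended on gate and depth. Klf2 was at 65.9, 46.8 and 43.7 CPM in monocyte/DC-gated, LMPP-gated and B cell-gated cells, which overlapped, and at 12.8 CPM outside the gates. Zfp36 was at 106 CPM (77.5 to 141) in B cell-gated cells, the highest of the 5 though overlapping LMPP-gated cells, and at 37.9 CPM outside the gates. With the gates loosened by 1 marker Zfp36 was at 55.5 CPM (32.3 to 88.8) in B cell-gated and 54.0 CPM in LMPP-gated cells, so its high place depended on the gate.

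GMP-gated cells were few in cKO, so their ratios are wide. Zfp36 was at 62.8 CPM on 458 UMIs in WT and 38.0 CPM on 18 UMIs in cKO (-0.68, -1.49 to -0.05). Btg2 was at -1.53 (-2.95 to -0.57) and Klf2 at -1.81 (-4.32 to -0.46), and the intervals of the other 7 members included 0, that of Klf4, with 0 UMIs in cKO, having no lower limit. With the gate loosened to 10 UMIs of GMP markers, which gave 1135 WT and 81 cKO cells, Klf2 was at -2.64 (-4.06 to -1.68), Btg2 at -1.57 (-2.24 to -1.02) and Zfp36 at -0.89 (-1.31 to -0.52). Both gates thus gave a lower level for these 3 genes in cKO, and Zfp36l2 was at -0.19 and -0.22 (-0.38 to -0.06). The looser gate also put Klf6 at -1.41 (-2.09 to -0.84) and Btg1 at -0.87 (-1.37 to -0.43), from -0.29 and -0.26, and Klf4, with 48 WT and 0 cKO UMIs, had an upper limit of -0.65, so the values of these 3 depended on the gate.

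The exceptions lay in small classes, though not in all of them. In erythroid-, megakaryocyte- and B cell-gated cells the summed level of the 10 members was lower in cKO, as over all cells. The log2 ratios of these sums were -0.63 (-1.08 to -0.18), -1.47 (-1.91 to -1.07) and -1.01 (-1.40 to -0.57). In basophil/mast-gated cells (14 WT, 19 cKO), Zfp36 was at 56.3 CPM on 5 UMIs in WT and 169 CPM on 17 UMIs in cKO, a log2 ratio of 1.49 (0.09 to 3.38), and Zfp36l2 at 270.4 and 646 CPM, a ratio of 1.24 (0.56 to 1.998). Klf6 was at 237 and 239 CPM there. The median depth was 6686 UMIs in WT and 5031 in cKO, so the cKO cells of this class were not the deeper ones. The markers of the class were themselves higher in cKO, with a median log2 ratio of 0.94 and 4 of 10 past 2-fold, and the T/NK markers were at a median of 0.82 with 5 of 10 past 2-fold in the T/NK gate. The part of these shifts in the members' values was not tested. With the gate loosened by 1 marker (62 WT, 21 cKO cells) Zfp36 turned to -0.57 (-1.50 to 0.21) and Zfp36l2 was at 0.52 (0.08 to 0.95). In T/NK-gated cells (15 WT, 27 cKO), also of like depth at 3236 and 3208 UMIs, Klf2 was at 146 and 135 CPM (-0.15, -1.42 to 1.32), Btg2 at 164 and 152 CPM (-0.15, -1.34 to 1.23) and Btg1 at 219 and 414 CPM (0.88, -0.01 to 1.97). When the T/NK gate was loosened by 1 marker, to 129 WT and 179 cKO cells, Klf2 was at -2.60 (-3.32 to -1.94) and Btg2 at -2.29. Btg1 turned to -1.14 (-1.59 to -0.68), so the values of these 3 genes depended on the gate.

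Counted per cell rather than per UMI, the members were found in fewer cKO cells. In cells thinned to 2000 UMIs (7951 WT, 8370 cKO; 195 and 104 shallower cells left out), a UMI of Zfp36 was found in 30.4% (29.4 to 31.5) of WT and 8.82% (8.22 to 9.45) of cKO cells. Btg2 was found in 21.5% and 5.08%, Btg1 in 21.5% and 7.20%, Klf6 in 17.2% and 6.03% and Klf2 in 13.4% and 3.46%. For 9 of the 10 members the intervals lay apart with the lower share in cKO, beside 29% of all 9129 genes, the exception being Tob1 at 2.91% (2.55 to 3.30) and 3.42% (3.04 to 3.83). With no thinning the shares were 49.8% and 30.0% for Zfp36, and 4 members were then found in a larger share of the deeper cKO cells, with intervals apart for Zfp36l1, Zfp36l2 and Tob1 and overlapping for Tob2 (14.4% and 15.8%). How many of all genes were found in a larger share of the deeper cells was not counted. Within HSC-gated cells Zfp36 was found in 38.0% (31.5 to 44.8) of 216 WT and 13.5% (9.89 to 17.9) of 303 cKO cells. No class here is known to lack Zfp36 or the BTG genes. Klf2 and Klf4 had a UMI in 0 of 24 WT and 0 of 17 cKO erythroid-gated cells, which allows shares of cells with a UMI of up to 12.5% and 17.6% by the limit of 3 counts (14.2% and 19.5% by the Clopper-Pearson interval) at median depths of 5034 and 15559 UMIs.

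At equal depth, cells with several members were rarer in cKO. With each cell thinned to 2000 UMIs, no member was detected in 14.7% of WT and 35.1% of cKO cells, and the median number per cell was 2 in WT and 1 in cKO. Exactly 3 members were found in 16.0% of WT and 3.56% of cKO cells and exactly 4 in 8.41% and 0.717%. With no thinning, when the cKO cells were the deeper ones, no member was detected in 2.27% of WT and 1.35% of cKO cells, the opposite order, exactly 3 in 25.2% and 25.8% and exactly 4 in 19.4% and 13.4%, with medians of 3 and 2.

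**Figure D4:**
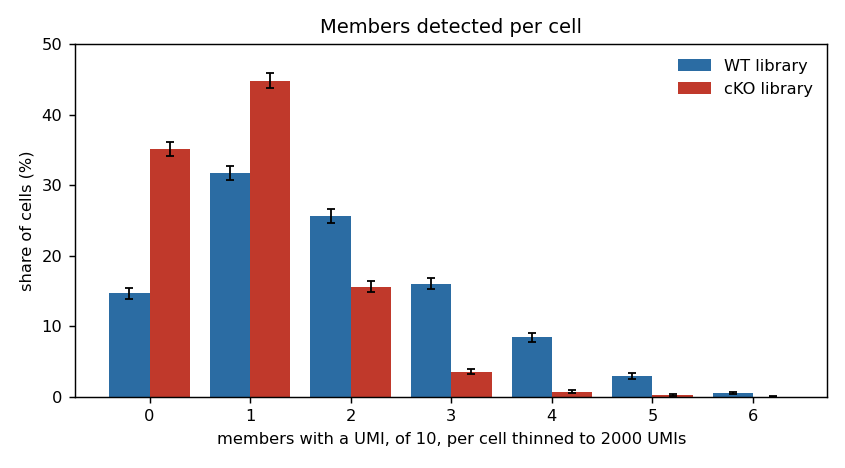
Share of cells (%) by the number of the 10 members with a UMI in a cell thinned to 2000 UMIs, WT in blue and cKO in red, with 95% Clopper-Pearson intervals; counts above 6 are not drawn. The share with 0 members is 14.7% in WT and 35.1% in cKO, and the share with 3 members 16.0% and 3.56%.

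Since BTG, TOB and KLF genes are tied to the exit from the cell cycle, levels were set beside the detection of 14 G2/M genes. Cells with none of these genes (3313 WT, 3774 cKO) and cells with 3 or more (2406 WT, 2162 cKO) were told apart on counts thinned to 2000 UMIs. The latter were also deeper, holding 17695510 UMIs in WT against 13265250 in the larger number of cells with none. In WT, all 10 members had a higher level in the cells with no G2/M gene with intervals apart, beside 27.2% of all genes, for example Klf2 at 92.7 against 60.4 CPM and Btg2 at 163 against 83.6 CPM. In cKO, Btg2 was at 27.8 CPM in cells with no G2/M gene and 17.9 CPM in cells with 3 or more, and Klf2 at 16.7 and 11.3 CPM, while Zfp36l1, Tob2 and Klf6 had overlapping intervals. The other 7 were higher in cKO cells with no G2/M gene with intervals apart, beside 23% of all genes. The cKO over WT ratios of Btg2, -2.55 (-2.66 to -2.44) and -2.22 (-2.37 to -2.07), and of Klf2, -2.47 and -2.41, were below -2 in both kinds of cell. Klf6 went from -2.02 (-2.14 to -1.91) in cells with no G2/M gene to -1.14 (-1.26 to -1.01) in cells with 3 or more. Zfp36l1 went from -1.20 (-1.38 to -1.01) to -0.12 (-0.34 to 0.11), and Tob1 from -0.04 (-0.26 to 0.18) to 0.56 (0.28 to 0.85), so that the intervals of each of these 3 genes lay apart between the kinds of cell, as they did for Zfp36, Zfp36l2, Btg1 and Btg2. How many of all genes had ratios apart in this way was not counted, so this is not read as a trait of the members.

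The enzymes that ZFP36, BTG and TOB proteins recruit had few members past 2-fold, beside 5.23% lower and 2.94% higher of all genes. Of 23 measured genes of CCR4-NOT, deadenylation and decapping, 1 was lower by more than 2-fold, Pan3, a subunit of the PAN2-PAN3 deadenylase (107 and 50.7 CPM, -1.08), and none was higher, with a median log2 ratio of -0.28. Pnrc1, a decapping coactivator, was at -0.93, and Pabpc4 and Parn were highest at 0.35 and 0.50. Of 12 other RNA-binding regulators of mRNA stability, only Zc3h12a, the endonuclease Regnase-1, was past 2-fold (9.62 and 3.90 CPM, -1.30), followed by Rc3h1 at -0.77. Elavl1, which stabilises AU-rich mRNAs, was at 0.26 and Tial1 at 0.19. Of 9 other BTG and KLF genes 1, the erythroid factor Klf1, was lower by more than 2-fold (6.41 and 2.59 CPM, -1.30), then Klf11 at -0.72, while Klf16 was at 0.32 and Klf9 at 0.68. Btg3, of the same subfamily as Btg1 and Btg2 and named here after its value was seen, was at -0.09 (-0.20 to 0.02).

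Transcripts known as ZFP36 family targets went both ways. Of 17 measured, 6 were lower and 2 higher by more than 2-fold, beside 5.23% lower and 2.94% higher of all genes. The median log2 ratio was -0.70, against -0.06 for all genes. Among the 6 lower, Ier3 (-1.74) and Socs3 (-1.18) are also on the immediate early list below. The chemokines Ccl3 (180 and 3.42 CPM, -5.72) and Ccl4 (193 and 11.3 CPM, -4.09) were lowest. Highest were Vegfa, a vascular growth factor (6.46 and 23.4 CPM, 1.85), and the G1 cyclin Ccnd1 (13.3 and 44.0 CPM, 1.72). Of 22 quiescence regulators and cyclin-dependent kinase inhibitors, 6 were lower and 5 higher by more than 2-fold, beside the same shares of all genes. Egr1 (105 and 17.5 CPM, -2.58) and Nr4a1 (47.9 and 9.31 CPM, -2.36), both also immediate early genes, were lowest. The kinase inhibitor Cdkn1c (6.99 and 29.0 CPM, 2.05) and the HSC quiescence factor Tcf15 (6.85 and 29.0 CPM, 2.08) were highest.

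Immediate early and dissociation response genes were lower in cKO as a group. Of 23 measured, 16 were lower by more than 2-fold and none higher, beside 5.23% lower and 2.94% higher of all genes. All 23 had a ratio below 0, with a median of -1.57. Fewer than 16 were lower by more than 2-fold in cells of 4000 to 8000 UMIs, beside 5.98% of all genes. The count at that depth is given in the closing section on processing. Jun, a subunit of AP-1, was at 1494 CPM in WT against 146 in cKO (-3.35), and Atf3 at 10.5 and 1.42 CPM (-2.89). Ier5 (-0.45) and Fosl2 (-0.22) differed least. The summed level of the 28 listed genes was 6049.6 CPM in WT against 1575 in cKO, a log2 ratio of -1.94. In LMPP-gated cells it was 7627 and 1908 CPM. The ratio was -2.29 in HSC-gated, -1.21 in monocyte/DC-gated and -1.11 in GMP-gated cells, and -0.01 (-0.15 to 0.13) in basophil/mast-gated cells, the class in which Zfp36 and Zfp36l2 were higher. In T/NK-gated cells it was -1.57 (-1.78 to -1.38), while the summed members stood at 1476 CPM in WT against 1335 in cKO (log2 -0.15, -0.54 to 0.26). With these gates loosened by 1 marker the T/NK contrast was smaller, with the list at -2.32 (-2.39 to -2.25) and the members at -1.29 (-1.43 to -1.16), and in basophil/mast-gated cells the list was at -0.32 (-0.43 to -0.21) and the members at 0.01 (-0.27 to 0.28). From the shallowest to the deepest range of cells it was -1.08, -1.34 and -1.20. These genes are induced when tissue is dissociated as well as by signals in the animal, and the part of sample handling in the members' values was not tested.

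**Figure D5:**
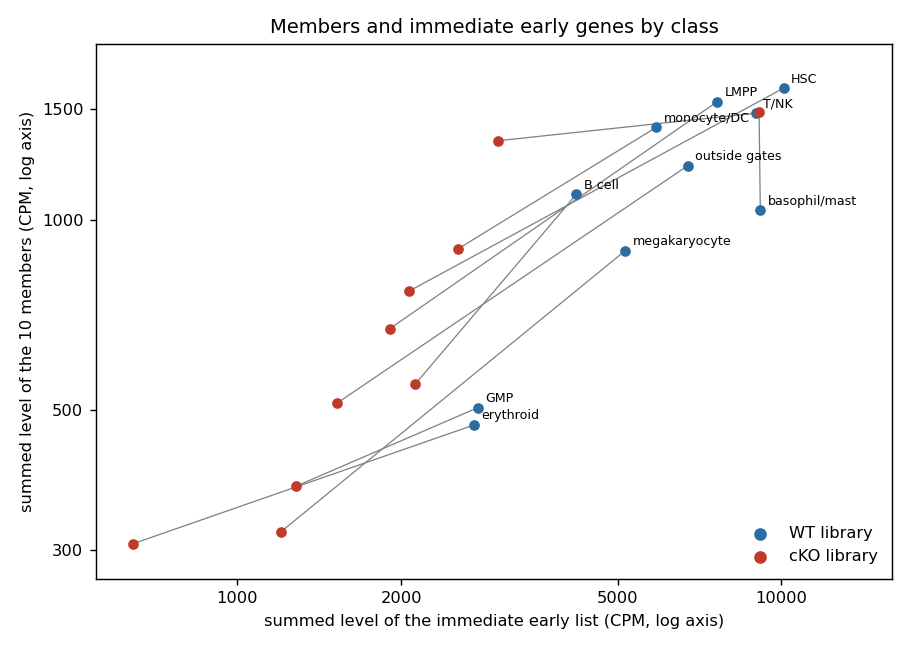
Summed level of the 10 members against the summed level of the immediate early list, both in CPM on log axes, for 9 marker-gated classes and the cells outside the gates (neutrophil-gated cells, absent in cKO, are not drawn), with WT in blue and cKO in red joined by a line per class. Most lines run down and to the left from WT to cKO, while basophil/mast-gated cells go from 1036 to 1482 CPM of the members at an immediate early level of 9147 and 9100 CPM. Of these member sums, Zfp36l2 alone held 270.4 CPM in WT and 646 CPM in cKO.

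The genes most like the members over classes came partly from the same response. The measure was Pearson's r of log2(CPM + 10) over 12 points, each 1 class of at least 50 cells in 1 library (7 WT, 5 cKO), among 7244 genes that reached 20 CPM in any point. These points share libraries and depth, and r is given as a description only. Among the 5 most alike for Zfp36 were Fos (0.94), Srsf5 (0.92), Fosb (0.92) and Pnrc1 (0.90). Those for Btg1 included Btg2 (0.90), Rassf5 (0.89), Lin37 (0.86) and Nfkbiz (0.85), and the 5 for Klf2 were Ptpn6 (0.87), Hcls1 (0.84), Il18rap (0.83), Btg1 (0.83) and Marcks (0.82). Among the members, Btg1 with Btg2 had the highest r, then Zfp36 with Btg2 (0.84), and Zfp36l1 with Tob1 the lowest (-0.31).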

How the data were processed

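The authors deposited UMI counts of each gene in each barcode, made by Cell Ranger 6.0.0 on mm10 (the labels and the study's methods name different versions of the 3′ kit). Cells were kept by the study's own limits for each library (over 200 genes, under 4000 genes and 10% mitochondrial UMIs in WT, under 4500 genes and 5% in cKO, under 5% haemoglobin UMIs), which left 8763 WT and 9151 cKO barcodes. Likely doublets, scored against simulated pairs over 50 neighbours, were removed (617 and 677 cells). Levels are CPM of counts summed over cells. log2 ratios used 0.5 prior counts. Exact intervals came from scipy 1.17.1, by the Poisson distribution for levels, the binomial given the summed UMIs for ratios, and Clopper-Pearson for shares. The background was all genes reaching 5 CPM in either library. Named were all members, Trmt6 and Trmt61a, the 2 highest and 2 lowest genes of each pathway list, and the 5 genes most alike for Zfp36, Btg1 and Klf2, of which 1 gene is not reported here. Members, markers and lists were chosen with earlier results of these data known. Of the markers, Cavin2 and Trbc1 had no row of that name. The counting was tested on simulated data. Alternatives covered scaling (edgeR 4.0.16 TMM factors among them), cell filters, gates, thinning and depth. Python 3.11 was used.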

Additional observations from a re-analysis of the deposited data

Results flagged for a closer look

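Zfp36 and Zfp36l2 in basophil/mast-gated cells went against the direction over all kept cells, with log2 ratios of 1.49 (0.09 to 3.38) and 1.24 (0.56 to 1.998) against -2.11 and -0.45. They were picked out because their counting intervals lay on opposite sides of 0, and the difference was not tested. The values rest on 5 and 24 WT and 17 and 65 cKO UMIs from 14 and 19 cells. With the gate loosened by 1 marker (62 WT, 21 cKO cells) they were -0.57 (-1.50 to 0.21) and 0.52 (0.08 to 0.95).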

How the results depend on the processing

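No paired analysis was possible because each genotype has 1 library, and for the same reason no replicate could be left out. Depth and the gates moved results by the amounts that follow. Of the counts of members lower by more than 2-fold, 6 over all kept cells became 1 in cells of 2000 to 4000 UMIs, and the 0 members higher became 1 there and 1 in cells of 8000 UMIs or more. In HSC-gated cells of 4000 to 8000 UMIs the count went from 6 to 5, with Btg1 and Klf6 lost and Zfp36l1 gained. In cells of 4000 to 8000 UMIs the count of LMPP-gated cells went from 7 to 3, of monocyte/DC-gated cells from 5 to 2 and of cells outside the gates from 7 to 4. For the classes at this depth the share of all genes was not counted. A gate 1 marker stricter gave 3 in monocyte/DC-gated cells and moved Klf4 from -2.40 to -0.67 in LMPP-gated cells. Btg1 turned to 0.65 over all cells of 2000 to 4000 UMIs, and Tob1 to 0.57 in LMPP-gated cells of 4000 to 8000 UMIs, on 12 WT and 5 cKO UMIs. The 0 members in a larger share of cKO cells with intervals apart became 3 with no thinning and 1 at 4000 UMIs, with no share of all genes counted beside them. Under median-of-ratios scaling and in cells of 4000 to 8000 UMIs, 0 genes of deadenylation and decapping were lower instead of 1. Of the other RNA-binding regulators, 2 were lower and 1 higher at a minimum of 1 CPM and 0 were lower at 4000 to 8000 UMIs, against 1 and 0. At that depth 1 of the other BTG and KLF genes was higher instead of 0, and 10 immediate early genes were lower instead of 16. The cause of these moves was not tested. Over the other 98 counts recomputed, the value stayed within 1.5 times. Scaling moved the median of all genes from -0.06 to at most 0.04 and reversed no member past 2-fold.

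Apart from the 2 depth ranges chosen after seeing the data, and over 11 alternatives for all kept cells, the log2 ratio ranged from -2.39 to -1.23 for Zfp36, from -1.95 to -1.04 for Btg1, from -2.55 to -1.63 for Btg2 and from -2.47 to -1.15 for Klf2, all past 2-fold, while Klf4 (-2.18 to -0.69) and Klf6 (-2.02 to -0.86) fell short of it in cells of 4000 to 8000 UMIs. Zfp36l2 ranged from -0.55 to 0.05 and Tob1 from -0.04 to 0.86, crossing 0.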
